A study of Homo sapiens with 12 samples.

Results

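The integrated stress response was followed through 10 genes, ATF4, DDIT3, TRIB3, SESN2, CHAC1, ASNS, PSAT1, PHGDH, SLC7A11 and INHBE, which were 10 of the 58735 genes in the deposited count table. They were picked by symbol, as ATF4 and genes known to respond to it, with INHBE added because it fell strongly when ZZZ3 was knocked down in cells with YAP-TFE3. The fall of INHBE in that comparison is therefore not a finding. No test of INHBE in a comparison that uses those libraries, or of any of the 10 genes in that comparison, is given as a result. The cells were SW872, a human liposarcoma line, made to express stably either TAZ-CAMTA1 (TC), the fusion of epithelioid hemangioendothelioma, or YAP-TFE3 (YT), the fusion found in a smaller subset of that sarcoma. Each line also carried a stable short hairpin, either a non-targeting control (shNT) or one against YEATS2 (shYEATS2) or ZZZ3 (shZZZ3), both of which code for subunits of the Ada2a-containing (ATAC) histone acetyltransferase complex. This gave 6 groups, TC shNT, TC shYEATS2, TC shZZZ3, YT shNT, YT shYEATS2 and YT shZZZ3, with 2 libraries in each and 12 in all. Both fusions came from retroviral vectors, and the study's hairpin constructs were packaged with lentiviral plasmids. Stable lines were kept as pools, so a library is taken as a pooled population of 1 cell line. The study reports that its sequencing triplicates came from separate transductions, and does not say this of the knock-down duplicates. In addition, all 6 groups carry a fusion and a hairpin, and cells without a fusion were not analysed here. The study's methods say of its other RNA sequencing that lines with a CAMTA1 sequence were harvested before confluence and the other lines after it, and they do not say whether this held for the knock-down lines. Where it did, growth density and the fusion cannot be told apart in any comparison of YT with TC.

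In the integrated stress response, kinases that sense amino acid shortage, unfolded protein in the endoplasmic reticulum, heme lack or double-stranded RNA phosphorylate the translation factor eIF2. General protein synthesis then slows while the mRNA of the transcription factor ATF4 is translated more, so that ATF4 activity can rise with little change in its mRNA. ATF4, often with partners of the C/EBP family such as DDIT3 (CHOP), switches on genes for amino acid synthesis and uptake, tRNA charging, glutathione turnover and feedback on the pathway. INHBE codes for the beta E subunit of inhibin and activin, a secreted protein made mainly in liver and known to respond to stress of the endoplasmic reticulum.

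Library totals ran from 17451893 to 29294805 counts, and mitochondrial genes took 3.66% to 6.17% of them. Values per library are CPM, counts scaled to a common library size with TMM factors, given as replicate 1 and replicate 2. In the libraries with its hairpin YEATS2 stood at 45.5 and 35.1 CPM in TC and 33.9 and 38.5 CPM in YT, against 113 and 123 CPM in TC shNT and 115 and 117 CPM in YT shNT, and both falls passed the test (adjusted p = 0.0138 and 1.05e-04, edgeR quasi-likelihood test with Benjamini-Hochberg adjustment over 18415 genes). ZZZ3 stood at 21.9 and 22.7 CPM in TC shZZZ3 against 25.6 and 60.4 in TC shNT, which did not pass (edgeR adjusted p = 0.45), and at 12.6 and 29.6 CPM in YT shZZZ3 against 71.2 and 49.1 in YT shNT, which passed narrowly (edgeR adjusted p = 0.0453). In YT shYEATS2, which has no hairpin against it, ZZZ3 was at 31.4 and 30.7 CPM, below both YT shNT and above both YT shZZZ3 libraries. The fall of ZZZ3 in YT shZZZ3 did not pass in 13 of 19 alternative settings, 9 of which each left out 1 library. The mesenchymal marker VIM (696 to 2152 CPM), the adipocyte regulator PPARG (36.8 to 109 CPM) and the adipocyte marker LPL (73.3 to 286 CPM) were present in the 12 libraries. The epithelial markers KRT8 (43.8 to 315 CPM) and KRT18 (215 to 739 CPM) were present too. Of the other adipocyte markers, CEBPA and PLIN1 had medians of 1.52 and 0.788 CPM, and FABP4 and ADIPOQ had a median of 0. Of the leukocyte markers, PTPRC had a median of 0, CD3E of 0.271 CPM and CD14 of 1.36 CPM. The summed level of 5 mesenchymal markers (VIM, COL1A1, COL1A2, PDGFRB and THY1, none at 0) was lowest in YT shNT, at 1213 and 1265 CPM against 2065 and 1566 in TC shNT and 2226 and 2251 in YT shYEATS2, and its part in the results was not tested.

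All 10 genes had their highest group mean in YT shNT, the YAP-TFE3 line with the control hairpin. For 8 of the 9 genes other than INHBE, and for INHBE, both YT shNT libraries stood above the other 10 libraries, and PHGDH was the exception. Over all 18415 genes tested the same held for 11.6%, and since the set was picked with these values known, nothing is read from the difference. The plot of CPM by library shows the pattern at a glance, with the 2 YT shNT points alone at the top of 9 panels and within the spread of the other libraries in the PHGDH panel. These are bulk libraries, so a change in how many cells express a gene and a change in RNA per cell cannot be told apart.

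**Figure D1:**
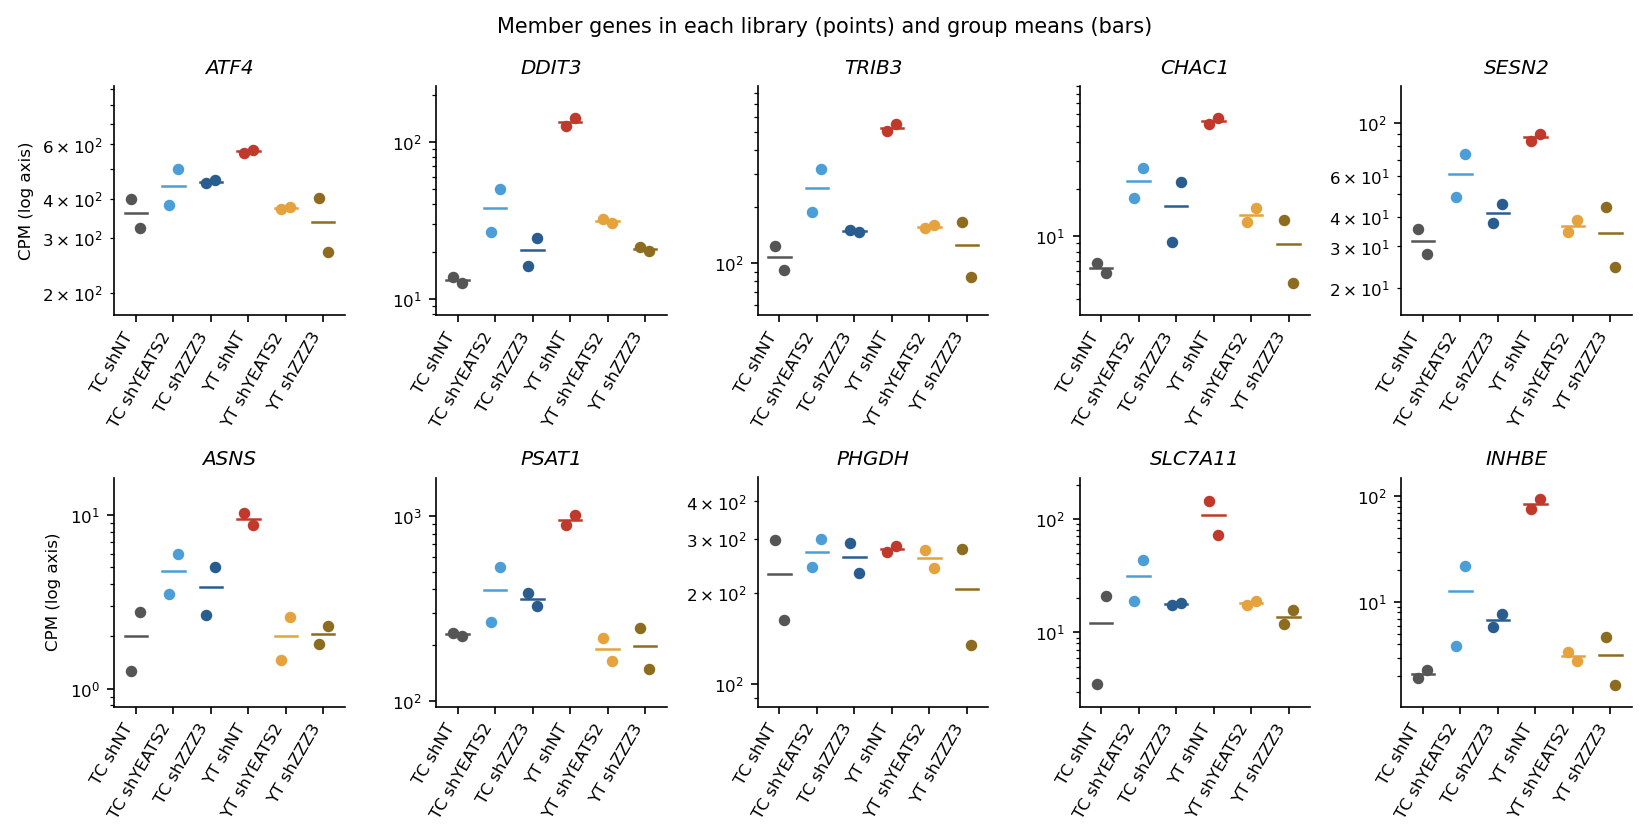
CPM of each of the 10 genes (log axis) in the 6 groups; points are the 2 libraries of a group, replicate 1 to the left, and short bars are group means. DDIT3 reaches 127 and 143 CPM in YT shNT and lies between 12.5 and 49.9 CPM in the other 10 libraries, while PHGDH in YT shNT, at 272 and 285 CPM, lies within the range of the other libraries.

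To set sequence beside these levels, the 250 bases before the annotated start of each gene were read from RefSeq (GRCh38.p14), with 1 to 3 annotated starts a gene, where 8 of the 10 genes had an entry (ATF4, DDIT3, TRIB3, CHAC1, SESN2, ASNS, PSAT1 and PHGDH). The core of the C/EBP-ATF response element, through which ATF4 acts with a C/EBP partner, was searched on both strands as TGATGNAA. It was found in ASNS and CHAC1, 2 of the 8 genes, where 3.89% of all 27305 symbols had it in at least 1 window. In ASNS it lay at bases -68 to -61 from the start and in CHAC1 at -209 to -202, there on the opposite strand, so that the printed strand reads its reverse complement. The E-box CACGTG, a letter sequence bound by TFE3 and its relatives among other factors, was found before the start of ATF4, 82 bases upstream of 1 annotated start, in 1 of the 8 genes, where 7.73% of all symbols had it. The MCAT letters GGAATG, bound by TEAD factors, were found for 0 of the 8 genes and for 14.3% of all symbols. The 30 bases around each match are printed to show where the motif letters, in capitals, sit.
ASNS (GRCh38.p14, chr7:97872458-97872487, minus strand): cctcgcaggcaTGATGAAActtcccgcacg
CHAC1 (GRCh38.p14, chr15:40953251-40953280, plus strand): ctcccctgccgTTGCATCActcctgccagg
ATF4 (GRCh38.p14, chr22:39520465-39520494, plus strand): ggaggagacggtCACGTGgtcgcggcggaa
A match is a match of letters and says nothing of binding in these cells. ASNS and CHAC1 carry the core and DDIT3, TRIB3, PSAT1 and SESN2 do not in this window, although all 6 were called higher in YT shNT.

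ATF4, the transcription factor at the head of the set, had the smallest differences of the genes that were highest in both YT shNT libraries. In TC, its mRNA stood at 400.2 and 323 CPM with shNT, 385 and 499 with shYEATS2 and 451 and 462 with shZZZ3. The YT values were 562 and 577 CPM with shNT, 373 and 378 with shYEATS2 and 405 and 272 with shZZZ3. Both YT shNT libraries were above the other 10, and the second YT shZZZ3 library was the lowest of the 12. Against TC shNT the YT shNT level was 1.57-fold higher (log2 fold change 0.65, SE 0.217, adjusted p = 0.0873, edgeR), and against YT shNT the level in YT shYEATS2 was 1.52-fold lower (log2 fold change -0.60, SE 0.217, adjusted p = 0.0727, edgeR). Neither passed. Both passed with scaling by library totals, the first also with DESeq2 and the second also with no count filter or with the contrast fitted alone, and each in some fits that left out 1 library.

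DDIT3, which codes for CHOP, the C/EBP family factor that ATF4 induces, had a far wider range. In TC, DDIT3 stood at 13.7 and 12.5 CPM with shNT, 26.5 and 49.9 with shYEATS2 and 16.2 and 24.4 with shZZZ3. In YT it stood at 127 and 143 CPM with shNT, 32.3 and 30.3 with shYEATS2 and 21.5 and 20.2 with shZZZ3. The YT shNT libraries were above the other 10, TC shYEATS2 came next with its pair spread by 1.86-fold, and TC shNT was lowest. DDIT3 was 10.2-fold higher in YT shNT than TC shNT (log2 fold change 3.36, SE 0.281, adjusted p = 1.09e-04, edgeR) and 4.31-fold lower in YT shYEATS2 than in YT shNT (log2 fold change -2.11, SE 0.278, adjusted p = 5.27e-04, edgeR). In YT shZZZ3 it was 6.46-fold lower, as a description. DDIT3 shares 27.2% of its exon bases with MARS1 on the opposite strand, and how strand was handled in counting is not given in the sources used here. MARS1 itself did not pass in either tested comparison.

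Next come TRIB3 and SESN2, which act as brakes. TRIB3 is a pseudokinase that binds ATF4 and dampens it, and SESN2 restrains mTORC1 when amino acids run short. TRIB3 in the TC libraries stood at 123 and 91.7 CPM with shNT, 186 and 317 with shYEATS2 and 149 and 147 with shZZZ3. The YT libraries had 506 and 547 CPM with shNT, 154 and 159 with shYEATS2 and 167 and 84.7 with shZZZ3. YT shNT was alone at the top, and TC shNT and the second YT shZZZ3 library were lowest. TRIB3 was 4.90-fold higher in YT shNT than TC shNT (log2 fold change 2.29, SE 0.31, adjusted p = 0.00149, edgeR) and 3.36-fold lower in YT shYEATS2 than in YT shNT (log2 fold change -1.75, SE 0.31, adjusted p = 0.00307, edgeR). In TC, SESN2 stood at 35.5 and 27.9 CPM with shNT, 48.6 and 73.7 with shYEATS2 and 37.9 and 45.4 with shZZZ3. The YT values were 84.4 and 89.9 CPM with shNT, 34.5 and 38.9 with shYEATS2 and 44.1 and 24.5 with shZZZ3. Its span was the smallest among the called genes, and the first library of YT shZZZ3 lay above both of YT shYEATS2. The difference of YT shNT from TC shNT was 2.75-fold for SESN2 (log2 fold change 1.46, SE 0.283, adjusted p = 0.0094, edgeR) and that of YT shYEATS2 from YT shNT was 2.37-fold downward (log2 fold change -1.25, SE 0.283, adjusted p = 0.0108, edgeR). Both SESN2 calls were lost when the trend of counts with GC content was removed (log2 fold changes 1.18 and -1.16).

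CHAC1 and SLC7A11 bear on glutathione. CHAC1 degrades glutathione in the cytosol, and SLC7A11 is the cystine and glutamate exchanger that supplies cysteine for its synthesis. CHAC1 in the TC libraries stood at 6.71 and 5.88 CPM with shNT, 17.5 and 27.2 with shYEATS2 and 9.14 and 22.2 with shZZZ3. In YT it stood at 51.8 and 56.5 CPM with shNT, 12.3 and 15.2 with shYEATS2 and 12.7 and 5.03 with shZZZ3. The YT shNT libraries lay above all others, the pairs of TC shZZZ3 and YT shZZZ3 were each split by more than 2-fold, and TC shNT was lowest on average. CHAC1 was 8.49-fold higher in YT shNT than TC shNT (log2 fold change 3.09, SE 0.448, adjusted p = 0.00233, edgeR) and 3.92-fold lower in YT shYEATS2 than in YT shNT (log2 fold change -1.97, SE 0.44, adjusted p = 0.0108, edgeR). In TC, SLC7A11 stood at 3.55 and 20.8 CPM with shNT, 18.8 and 43.4 with shYEATS2 and 17.4 and 18.2 with shZZZ3. The YT libraries had 144 and 71.8 CPM with shNT, 17.4 and 18.99 with shYEATS2 and 11.9 and 15.7 with shZZZ3. Its pairs were wide, as the TC shNT pair was split by 5.26-fold and the YT shNT pair by 2.004-fold, yet both YT shNT libraries remained above all others. It was 8.89-fold higher in YT shNT than TC shNT (log2 fold change 3.15, SE 0.618, adjusted p = 0.013, edgeR) and 5.93-fold lower in YT shYEATS2 than in YT shNT (log2 fold change -2.57, SE 0.614, adjusted p = 0.017, edgeR). Without the first YT shNT library neither difference in SLC7A11 passed.

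Of the synthesis enzymes, PHGDH and PSAT1 catalyse the opening steps of serine synthesis from glycolysis, and ASNS makes asparagine. PSAT1 in the TC libraries stood at 232 and 225 CPM with shNT, 265 and 529 with shYEATS2 and 383 and 326 with shZZZ3. The YT values were 896 and 1005 CPM with shNT, 219.8 and 164 with shYEATS2 and 249 and 149 with shZZZ3. YT shNT was far above the rest, and the YT libraries with either of the other hairpins lay around the level of TC shNT. PSAT1 was 4.15-fold higher in YT shNT than TC shNT (log2 fold change 2.05, SE 0.316, adjusted p = 0.00289, edgeR) and 4.95-fold lower in YT shYEATS2 than in YT shNT (log2 fold change -2.31, SE 0.316, adjusted p = 7.15e-04, edgeR). PHGDH, which acts just before PSAT1, stood in TC at 299 and 163 CPM with shNT, 244 and 299.9 with shYEATS2 and 292 and 233 with shZZZ3. In YT it stood at 272 and 285 CPM with shNT, 277 and 242 with shYEATS2 and 278 and 135 with shZZZ3. Its YT shNT pair overlapped those of TC shNT and YT shYEATS2, with differences of 1.21-fold (log2 fold change 0.27, SE 0.334, adjusted p = 0.668, edgeR) and 1.07-fold (log2 fold change -0.10, SE 0.334, adjusted p = 0.85, edgeR). ASNS was counted far lower, in TC at 1.26 and 2.77 CPM with shNT, 3.49 and 5.98 with shYEATS2 and 2.64 and 5.02 with shZZZ3. The YT libraries had 10.3 and 8.80 CPM with shNT, 1.46 and 2.58 with shYEATS2 and 1.82 and 2.28 with shZZZ3. It rose 4.63-fold in YT shNT against TC shNT (log2 fold change 2.21, SE 0.443, adjusted p = 0.0101, edgeR) and fell 4.61-fold in YT shYEATS2 against YT shNT (log2 fold change -2.21, SE 0.446, adjusted p = 0.00548, edgeR). The rise was not called once the GC trend was removed, nor without the first TC shNT library or either YT shNT library, and the fall was not called without the first YT shYEATS2 library. The ASNS values are uncertain. The gene had 1005 counts over the 12 libraries, its pseudogene ASNSP1 had 2341, and a read-through gene on the same strand shares 49.3% of its exon bases, so part of its reads may have been assigned elsewhere.

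INHBE had the widest range of the 10. In TC, INHBE stood at 1.91 and 2.29 CPM with shNT, 3.84 and 21.8 with shYEATS2 and 5.85 and 7.70 with shZZZ3. The YT values were 75.8 and 93.9 CPM with shNT, 3.41 and 2.79 with shYEATS2 and 4.73 and 1.65 with shZZZ3. In counts this was 50 and 48 for TC shNT, 1435 and 1633 for YT shNT and 130 and 39 for YT shZZZ3. The YT shNT libraries stood apart from the other 10, and the second TC shYEATS2 library was the only other one above 10 CPM. The log2 difference, with no test, was 5.28 for YT shNT against TC shNT, -4.73 for YT shYEATS2 against YT shNT and -4.68 for YT shZZZ3 against YT shNT, that is 38.9-fold higher, 26.6-fold lower and 25.7-fold lower. Among comparisons that the choice of the gene did not use, INHBE was 5.86-fold higher in TC shYEATS2 than in TC shNT (log2 fold change 2.55, SE 0.659, adjusted p = 0.302, edgeR), 3.14-fold higher in TC shZZZ3 (log2 fold change 1.65, SE 0.67, adjusted p = 0.374, edgeR) and 4.003-fold lower in YT shYEATS2 than in TC shYEATS2 (log2 fold change -2.001, SE 0.643, adjusted p = 0.0685, edgeR). None of these 3 passed. Without the first YT shZZZ3 library the log2 difference of INHBE between YT shZZZ3 and YT shNT was -5.56.

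**Figure D2:**
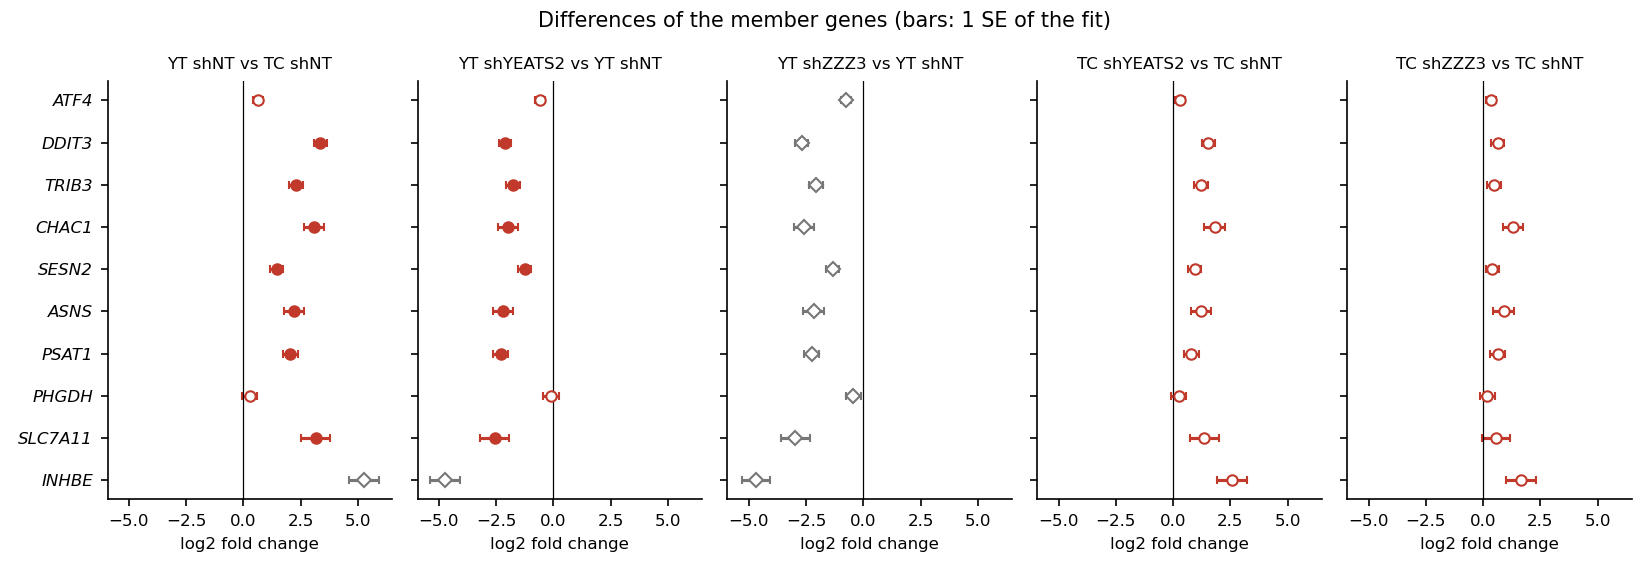
Log2 fold change of each gene in 5 comparisons, with bars of 1 SE from the fit; filled circles passed an edgeR adjusted p under 0.05, open circles did not, and grey open diamonds are values that chose the set and have no test. In YT shNT against TC shNT 7 filled circles lie to the right of 0, in YT shYEATS2 against YT shNT 7 lie to the left, and the 2 panels for TC hold open circles to the right of 0.

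Counted over the set, 7 of the 9 genes other than INHBE rose in YT shNT against TC shNT (edgeR adjusted p under 0.05), where 5.58% of all genes tested rose. Their median log2 fold change was 2.21, against -0.01 over all genes. In YT shYEATS2 against YT shNT 7 of the 9 fell, where 11.1% of all genes fell, with a median of -1.97 against -0.01. ATF4 and PHGDH were the 2 that did not pass in both. Both comparisons, and that of YT shZZZ3 with YT shNT, use the same 2 YT shNT libraries, so a high level there enters all of them at once. Their values are set side by side, and passing in both is not read as a further finding. Because the set was picked with these values known, the counts are descriptions, and nothing is read from their excess over all genes. In YT shZZZ3 against YT shNT 8 of the 10 were past the threshold downward, where 5.62% of all genes fell, and nothing is read from that count because the comparison chose the set. The number called depended on single libraries. In YT shYEATS2 against YT shNT it was 3 of 9 without the first YT shYEATS2 library, where CHAC1, SESN2, ASNS and SLC7A11 no longer passed, 4 without the second, where CHAC1, SESN2 and SLC7A11 did not, and 5 to 8 without any other library. In YT shNT against TC shNT it was 4 without the first YT shNT library, where SESN2, ASNS and SLC7A11 did not pass, and 5 to 8 otherwise. With the GC trend removed 5 of the 9 were called in YT shNT against TC shNT and 6 in YT shYEATS2 against YT shNT. The share of all genes that passed in these alternative fits is not given here. A loss particular to these genes and a loss over all genes therefore cannot be told apart.

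YT shZZZ3 was also set against YT shYEATS2. The median log2 difference between them over the 9 genes other than INHBE was -0.32, 0 of the 9 passed (edgeR, 0 also at an unadjusted p under 0.05 and 0 with DESeq2), and 7.21% of all genes passed. DDIT3, at 32.3 and 30.3 CPM with shYEATS2 and 21.5 and 20.2 with shZZZ3, had non-overlapping pairs (log2 fold change -0.58, SE 0.28, adjusted p = 0.265, edgeR). With 2 libraries a group, a missed threshold does not show that the 2 hairpins act alike on these genes. The 2 YT shZZZ3 libraries differed from each other. The second was below the first in 8 of the 10 genes, where 48.3% of all genes were higher in the second, and TRIB3 (167 and 84.7 CPM) and CHAC1 (12.7 and 5.03 CPM) show the gap. ZZZ3 itself was lower in the first of these libraries, and the part of that gap in the result was not tested. The summed endothelial markers were at 136 and 134 CPM in these libraries, 31.7 and 29.4 with shYEATS2 and 38.5 and 39.6 with shNT, and their part was not tested either.

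In the TAZ-CAMTA1 line the differences went the other way and were not called. All 10 fitted values were above 0 in TC shYEATS2 against TC shNT, with a median log2 fold change of 1.22 against -0.01 over all genes. None of the 10 passed in edgeR, where 0.0434% of all genes passed, although 7 had an unadjusted p under 0.05 and DESeq2 called 3 (DDIT3, TRIB3 and CHAC1). DDIT3 was 2.90-fold higher (log2 fold change 1.54, SE 0.282, adjusted p = 0.114, edgeR), CHAC1 3.505-fold (log2 fold change 1.81, SE 0.45, adjusted p = 0.287, edgeR) and TRIB3 2.34-fold (log2 fold change 1.23, SE 0.31, adjusted p = 0.295, edgeR). The second TC shYEATS2 library was above the first in 10 of the 10 genes, where 50.2% of all genes were. The same pair differed in other cell type markers, with the summed level of 3 endothelial markers (PECAM1, CDH5 and KDR, none at 0) at 45.3 and 242 CPM, against 63.9 and 72.7 in TC shNT, and that of 4 epithelial markers (EPCAM and CDH1 near 0) at 911 and 289.9 CPM, against 535 and 285. Their part in the result was not tested. INHBE was at 3.84 and 21.8 CPM and PSAT1 at 265 and 529 CPM in the pair. Without the first of these libraries 2 of the 10 passed, and without the second the median was 0.69. In TC shZZZ3 against TC shNT all 10 fitted values were again above 0, with a smaller median of 0.59, and 0 passed (1.53% of all genes did, 3 of the 10 had an unadjusted p under 0.05, DESeq2 called 0). CHAC1 was at 9.14 and 22.2 CPM against 6.71 and 5.88 CPM in TC shNT (log2 fold change 1.30, SE 0.453, adjusted p = 0.266, edgeR).

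The difference between the fusions in the effect of shYEATS2 was tested as an interaction (YT minus TC). Among the 9 genes other than INHBE, 7 had a more negative effect in YT that passed (edgeR), where 5.84% of all genes did, and ATF4 and PHGDH did not. Because the set was picked with the YT shNT values known, nothing is read from this count against that share. DDIT3 had an interaction of -3.64 (SE 0.396, edgeR adjusted p = 3.78e-04) on the log2 scale, from an effect of 1.54 in TC and -2.11 in YT. PSAT1 had -3.10 (SE 0.447, edgeR adjusted p = 0.00167), from 0.80 in TC and -2.31 in YT. ATF4 had -0.89 (SE 0.306, edgeR adjusted p = 0.1), and passed with scaling by library totals. For shZZZ3 the interaction uses the comparison that chose the set, so its values are given with no test, and the 7 of 10 past the threshold, where 2.86% of all genes had a more negative effect in YT, are not read as a result. The interaction values were -3.32 for DDIT3, -2.53 for TRIB3, -2.89 for PSAT1 and -6.33 for INHBE.

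With the YEATS2 hairpin in both lines the fusions were compared again. All 10 fitted values were lower in YT shYEATS2 than in TC shYEATS2, with a median log2 fold change of -0.72 against -0.03 over all genes, and 0 passed in edgeR (12.2% of all genes passed, 5 of the 10 had an unadjusted p under 0.05, and DESeq2 called PSAT1). PSAT1 was at 219.8 and 164 CPM in YT shYEATS2 and 265 and 529 CPM in TC shYEATS2 (log2 fold change -1.05, SE 0.316, adjusted p = 0.0551, edgeR). Without the second TC shYEATS2 library DDIT3 and PHGDH were above 0, the median was -0.28 and INHBE was at -0.30. With the ZZZ3 hairpin the median was -0.37 over the 9 genes other than INHBE, and 0 of them passed (2.62% of all genes did, 1 had an unadjusted p under 0.05, DESeq2 called 0). Between the 2 hairpins within TC, TC shZZZ3 lay below TC shYEATS2 for 9 of the 10, with a median of -0.53, and 0 passed (1.2% of all genes did, 2 had an unadjusted p under 0.05, DESeq2 called 0).

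Levels between genes were compared per kilobase of annotated exon. In YT shNT the order by mean CPM per kilobase ran from PSAT1 (431) through ATF4 (218), TRIB3 (160.0) and DDIT3 (103) to PHGDH (30.3), INHBE (27.9), CHAC1 (26.4), SESN2 (25.2), SLC7A11 (11.2) and ASNS (1.95). In TC shNT ATF4 (138) led PSAT1 (104), and INHBE (0.69) was near the bottom with ASNS (0.412). Per kilobase, INHBE was thus near the least expressed of the set in TC shNT and near PHGDH, CHAC1 and SESN2 in YT shNT. The YT shNT libraries were used to choose INHBE, so this is a description. The lengths are unions of all annotated exons, which lowers the value of genes with many isoforms.

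The genes whose pattern lay nearest to that of INHBE were found among 13257 genes averaging 50 counts or more, as the mean absolute difference of centred log2 CPM over the 12 libraries. The 5 nearest were STC2 (0.536), GDF15 (0.569), ADM2 (0.631), CTH (0.659) and ASNSP1 (0.706). STC2 codes for stanniocalcin 2 and GDF15 for a cytokine, both secreted, ADM2 for the hormone adrenomedullin 2, CTH for the enzyme that makes cysteine from cystathionine, and ASNSP1 is the ASNS pseudogene. STC2 was at 366 and 416 CPM in YT shNT, 48.7 and 49.9 with shYEATS2, 52.6 and 49.7 with shZZZ3 and 26.1 and 40.6 in TC shNT. GDF15 was at 21.2 and 17.5 CPM in YT shNT and at or under 2.40 CPM in the other 10 libraries. ADM2 was at 70.0 and 74.1 CPM in YT shNT and 8.62 and 3.64 with shZZZ3. In all of them the 2 YT shNT libraries were the highest, and in all the second TC shYEATS2 library was above the first. As they were chosen by nearness to INHBE over these same libraries, this likeness is no separate finding. Of the set, CHAC1 ranked 7, DDIT3 8, PSAT1 9, SLC7A11 10, TRIB3 17, ASNS 20, SESN2 71, ATF4 573 and PHGDH 2546. These likenesses are descriptions over 12 libraries that share groups, and STC2, GDF15, ADM2 and CTH are also in the lists of pathway genes used here.

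**Figure D3:**
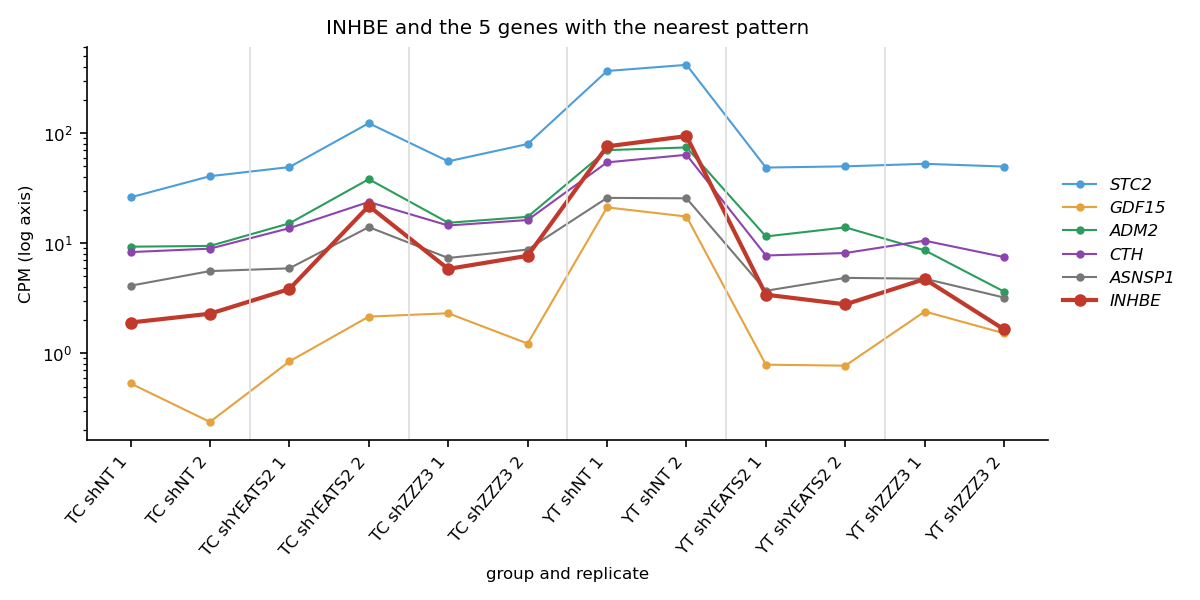
CPM (log axis) of INHBE and the 5 genes nearest to it in pattern, in the 12 libraries; each point is 1 library and lines only join points of a gene. All 6 genes are highest in the 2 YT shNT libraries, where INHBE is at 75.8 and 93.9 CPM. As the 5 were chosen by nearness to INHBE in these libraries, the shared peak is no separate finding.

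INHBE lies on chromosome 12 (57452323 to 57459280, plus strand, GRCh38), and DDIT3 lies nearby on that chromosome (57516588 to 57521737, minus strand), with 57.3 kb between them. Other protein-coding genes within 100 kb were followed to see whether the region as a whole moved. GLI1, the Hedgehog transcription factor whose start is 7.5 kb from that of INHBE, rose in YT shNT against TC shNT (log2 fold change 1.02, edgeR adjusted p = 0.0435) and fell in YT shYEATS2 against YT shNT (log2 fold change -1.06, edgeR adjusted p = 0.0218). ARHGAP9 rose in the first (1.398, edgeR adjusted p = 0.0136) and was at -0.58 in the second, which did not pass. The neighbours R3HDM2, MARS1, MBD6 and DCTN2 passed in neither, and the motor gene KIF5A rose in YT shYEATS2 (1.16, edgeR adjusted p = 0.0319). INHBC, the next inhibin subunit gene, had at most 5 counts in any library and was not tested.

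**Figure D4:**
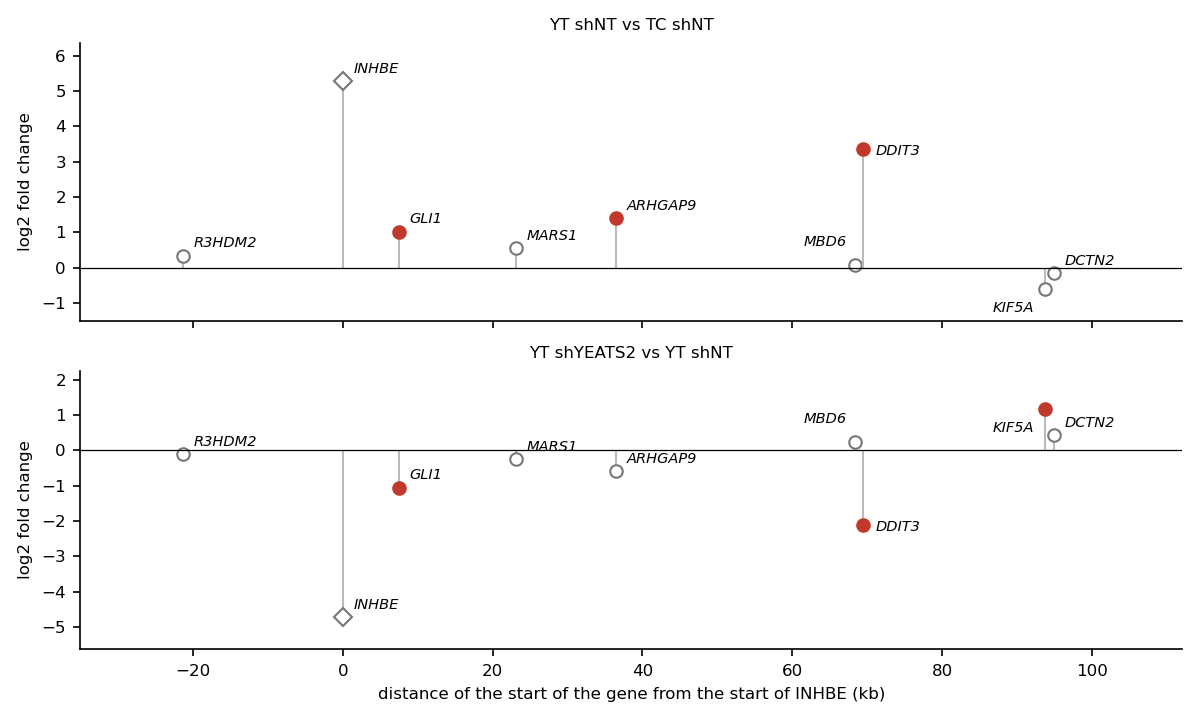
Log2 fold change of protein-coding genes within 100 kb of INHBE against the distance of their starts from that of INHBE (kb), for 2 comparisons; filled circles passed an edgeR adjusted p under 0.05 and the open diamond is INHBE, with no test. In YT shNT against TC shNT INHBE (5.28) and DDIT3 (3.36) are above the genes between them, ARHGAP9 (1.398), GLI1 (1.02) and MARS1 (0.54). Of these, ARHGAP9 and GLI1 passed.

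The rest of the pathway was followed in 10 lists with 103 further genes, of which 101 were tested, and the lists were written with earlier results of these data known. In YT shNT against TC shNT 43 of the 101 rose and 0 fell (edgeR; 5.58% of all genes rose and 3.65% fell), with a median log2 fold change of 0.63. In YT shYEATS2 against YT shNT 46 fell and 5 rose, where 11.1% of all genes fell and 9.61% rose, with a median of -0.60. In TC shYEATS2 against TC shNT 0 passed (edgeR; 23 had an unadjusted p under 0.05 and DESeq2 called 10), and in TC shZZZ3 against TC shNT 1 did, the stress-induced factor ATF3 (log2 fold change 1.42, edgeR adjusted p = 0.0146), which did not pass in 5 alternative settings. When the trend with GC content was removed the counts fell to 12 called in YT shNT against TC shNT and to 21 in YT shYEATS2 against YT shNT. The share of all genes that passed in that setting is not given here. Both comparisons use the same YT shNT libraries.

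Lists of ATF4 outputs held most of these calls. Of 7 amino acid transporters 6 rose in YT shNT, with the leucine exchanger SLC7A5 at 231 and 184 CPM in TC shNT, 735 and 852 in YT shNT and 150.3 and 161 after shYEATS2 (log2 fold change 1.93, SE 0.281, edgeR adjusted p = 0.00205 against TC shNT), and SLC7A5 was at 433 and 570.3 CPM for TC with shYEATS2 and 507 and 467 with shZZZ3. Of these 7, 6 fell in YT shYEATS2. Of 9 further synthesis genes 5 rose in YT shNT and 6 fell in YT shYEATS2, among them CTH (log2 fold change 2.76 and -2.88) and the mitochondrial one-carbon enzyme MTHFD2 (2.05 and -2.01). Of 14 tRNA synthetases and related genes 8 rose and 9 fell, with the tRNA exporter XPOT at 1.67 and -1.78 and glycyl-tRNA synthetase GARS1 at 1.45 and -1.61. Of 12 stress outputs and relatives of the set 7 rose and 7 fell, among them GDF15 (5.32 and -4.48) and STC2 (3.55 and -2.99), while the paralogs SESN1, SESN3, TRIB1, TRIB2 and CHAC2 passed in neither.

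Upstream genes of the pathway differed by list. None of the 7 eIF2 kinase genes and their activators passed in YT shNT against TC shNT (edgeR; 3 had an unadjusted p under 0.05 and DESeq2 called 1), and EIF2AK3, which codes for the endoplasmic reticulum kinase PERK, was at 18.96 and 26.5 CPM in TC shNT and 37.1 and 37.8 in YT shNT (0.72, edgeR adjusted p = 0.0543). In YT shYEATS2 EIF2AK3 fell (-0.69) and DELE1, the relay of mitochondrial stress, rose (0.79), calls that were lost in 9 and 5 of 19 alternative settings. Among 10 genes of eIF2, its exchange factor and its phosphatase, the phosphatase subunits PPP1R15A (1.95) and PPP1R15B (1.02) and the eIF2 subunit EIF2S2 (1.07) rose in YT shNT, and these 3 fell in YT shYEATS2. The EIF2S2 call was lost in 12 of the 19 settings in YT shNT and in 5 in YT shYEATS2. Of 5 bZIP partners 3 rose, ATF3 (2.75), CEBPG (1.85) and CEBPB (1.09), and CEBPB lost its call in 9 settings and did not pass in YT shYEATS2 (-0.67, edgeR adjusted p = 0.121). The list of endoplasmic reticulum chaperones and the XBP1 and ATF6 branch was mixed, with 9 of 18 higher in YT shNT and, in YT shYEATS2, 9 lower and 1 higher. ERN1, which codes for the sensor IRE1, was at 2.30 and -1.75, the chaperone DNAJB9 at 1.53 and -1.79, and the chaperone HSPA5 was at 990.3 and 1056 CPM in TC shNT and 1910.1 and 2305 in YT shNT (1.04), while HSP90B1 and PDIA4 did not pass and the calcium-binding chaperone CALR rose in YT shYEATS2 (1.32).

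**Figure D5:**
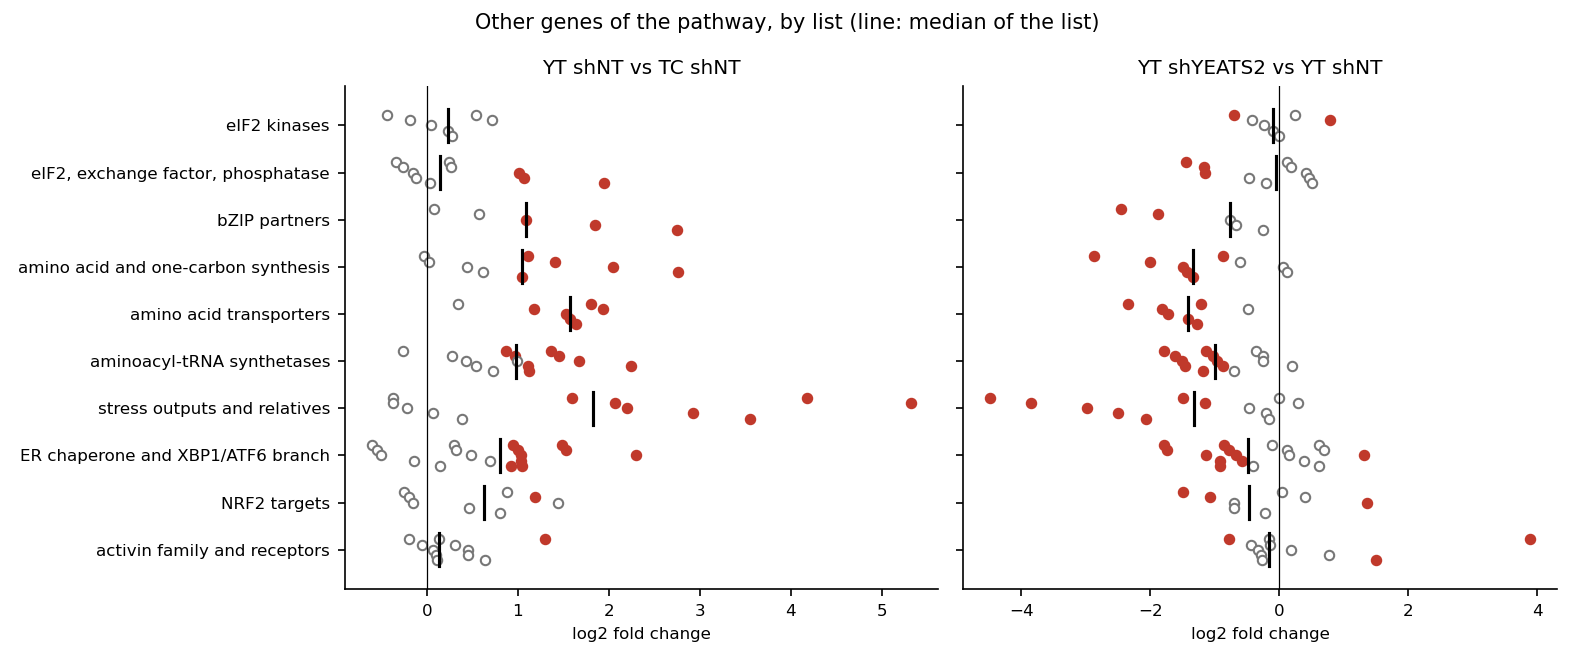
Log2 fold change of 101 other genes of the pathway, by list, in YT shNT against TC shNT and in YT shYEATS2 against YT shNT; each circle is a gene, filled where the edgeR adjusted p was under 0.05, and the black line is the median of the list. In the left panel amino acid transporters have a median of 1.57 and eIF2 kinases near 0 (median 0.23).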

How the data were processed

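RNA sequencing measured 12 libraries of SW872 cells in 6 groups of 2, set by the labels. Libraries were poly(A)-selected, strand-specific and read from both ends, and the authors ran the bcbio-nextgen pipeline with HISAT2 and Ensembl annotation on the human hg38 assembly. What they deposited is a raw count for each gene and library, with no normalization. The methods also describe Salmon estimates, and which route gave the counts, and how strand and multiply mapped reads were handled, is not given in the sources used here. The study calls the 2 libraries of each condition biological duplicates, and p-values measure the spread between them.

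Genes averaging 5 counts or more over the libraries (18415) were fitted in edgeR 4.0.16 (R 4.3.3) with TMM scaling, group as the factor, robust quasi-likelihood tests, a prior count of 2 and Benjamini-Hochberg adjustment over all of them; a call is an adjusted p under 0.05, two-sided. DESeq2 1.42.0 was run as an alternative, as were other scalings, count filters, removal of the GC trend, a replicate block, a fit of each contrast alone and leaving out each library. The fit was tested on simulated data. Standard errors come from the fit. A pair with 3 or fewer counts per library was treated as at the floor of detection. Positions are from GENCODE 44 (GRCh38), which held 99.1% of the IDs, and sequences from RefSeq.

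The 10 genes, the pathway lists and the tests were chosen with earlier results of these data known. The named genes were the 10 in every comparison; from each list up to 3 called genes per comparison and direction whose pairs did not overlap, largest log2 fold change first; the protein-coding genes within 100 kb of INHBE; its 5 nearest genes in pattern; the 2 hairpin targets; and the cell type markers. SESN1, SESN3, TRIB1, TRIB2, CHAC2, HSPA5, HSP90B1, PDIA4 and NQO1 were named after their values were seen, as was EIF2AK3 in YT shNT. A result for a gene in the list of NRF2 targets is not reported here. Reads of the fusions and the study's chromatin assays were not analysed here.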

Additional observations from a re-analysis of the deposited data

Results flagged for a closer look

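The effect of shYEATS2 differed between the 2 fusions for 7 genes of the set, by an interaction test of YT minus TC. On the log2 scale the difference was -3.64 for DDIT3 (edgeR adjusted p = 3.78e-04), -2.98 for TRIB3 (edgeR adjusted p = 0.00186), -3.78 for CHAC1 (edgeR adjusted p = 0.00384) and -2.19 for SESN2 (edgeR adjusted p = 0.00615). It was -3.41 for ASNS (edgeR adjusted p = 0.00601), -3.10 for PSAT1 (edgeR adjusted p = 0.00167) and -3.92 for SLC7A11 (edgeR adjusted p = 0.0189). In YT each of the 7 was lower in both shYEATS2 libraries than in both shNT libraries. In TC both shYEATS2 libraries were higher than both shNT libraries for 6 of the 7, and the SLC7A11 pairs overlapped. The SESN2 difference did not pass once the GC trend was removed (log2 difference -2.14), and that of SLC7A11 did not pass without the second TC shYEATS2, the first YT shNT or either YT shYEATS2 library. The YT shNT libraries, the highest for these genes, enter every one of these values, and the set was picked with them known.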

How the results depend on the processing

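No result that was past the threshold, in the main fit or in an alternative, turned its direction. Some values that did not pass changed sign. DDIT3 and PHGDH did so in YT shYEATS2 against TC shYEATS2 without the second TC shYEATS2 library. With genes of any count kept, the number of the 10 genes called was 6 in TC shYEATS2 against TC shNT, 2 in TC shZZZ3 against TC shNT, 6 in YT shYEATS2 against TC shYEATS2, 2 in YT shZZZ3 against TC shZZZ3 and 2 in TC shZZZ3 against TC shYEATS2, where the filtered test called 0. The same setting called 12 and 9 other pathway genes in TC shYEATS2 and TC shZZZ3 against TC shNT. DESeq2 called 3 of the 10 in TC shYEATS2 against TC shNT and 1 in YT shYEATS2 against TC shYEATS2, and 10 and 7 other pathway genes in the 2 TC comparisons. Scaling by library totals called 1 of the 10 in YT shYEATS2 against TC shYEATS2 and 2 other pathway genes in TC shZZZ3 against TC shNT. With the GC trend removed the other pathway genes called were 21 in YT shYEATS2, 16 in YT shZZZ3 (both against YT shNT), 12 in YT shNT against TC shNT and 0 in TC shZZZ3 against TC shNT, and a fit of that last contrast alone also gave 0. The cause of these changes was not tested. The share of all genes that passed in each of these settings is not given here, so the counts are not read as a result about these genes.

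For YT shZZZ3 against YT shNT and the shZZZ3 interaction, the counts of the 10 use the values that chose the set. Every count of the 10 in a comparison with YT shNT or YT shZZZ3 libraries includes INHBE with libraries that chose it. Nothing is read from these counts. Counts also ranged with the library left out, and the share of all genes that passed in those fits is not given here. Without INHBE the ranges were 3 to 8 of 9 in YT shYEATS2 against YT shNT and 4 to 8 in YT shNT against TC shNT. Leaving out 1 library at a time, the number of the 10 called ranged from 0 to 2 in TC shYEATS2 against TC shNT, from 4 to 9 in YT shYEATS2, from 5 to 9 in YT shZZZ3 and from 5 to 9 in YT shNT against TC shNT, from 0 to 3 in YT shYEATS2 against TC shYEATS2, from 0 to 1 in TC shZZZ3 against TC shYEATS2 and from 4 to 8 in the shZZZ3 interaction. The other pathway genes called ranged from 0 to 2, 0 to 3, 26 to 56, 22 to 51 and 19 to 46 in TC shYEATS2, TC shZZZ3, YT shYEATS2, YT shZZZ3 and YT shNT, in that order, against their controls. The log2 difference of INHBE in YT shZZZ3 against YT shNT ranged from -5.56 to -4.15. The fall of ZZZ3 in YT shZZZ3 no longer passed with library totals, a minimum mean of 50 counts, the GC trend removed or the contrast alone, nor without any 1 of 9 of the 12 libraries.

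The labels do not say whether the replicate numbers pair the samples. Deviations of same-numbered libraries from their group means correlated between -0.456 and 0.907 over the 15 pairs of groups, 7 of them above 0.1. Same-numbered libraries thus deviated together in some groups and not in others. In every group the second library had the lower total and the higher mitochondrial share, as in YT shYEATS2 (4.43% and 6.17%). The main fit did not use the number. With a replicate block 2 of the 10 genes were called in YT shYEATS2 against TC shYEATS2 and 2 other pathway genes in TC shZZZ3 against TC shNT, and 7 of the 9 genes other than INHBE in YT shYEATS2 against YT shNT. Depth limits ASNS and INHBE most, with lowest library counts of 33 and 39.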

Other observations

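Genes next to the pathway gave further values. FST codes for follistatin, which binds and blocks activins, and it rose in YT shYEATS2, where 7 genes of the set fell. It was at 3.22 and 2.82 CPM in YT shNT, 50.2 and 42.0 with shYEATS2 and 17.8 and 18.7 with shZZZ3, and at or under 3.31 CPM in the 6 TC libraries. The rise in YT shYEATS2 against YT shNT passed (log2 fold change 3.89, SE 0.33, edgeR adjusted p = 4.60e-05), as did the difference from TC shYEATS2 (4.29, edgeR adjusted p = 4.04e-05). Of 11 tested genes of the activin family and its receptors, 2 rose in YT shYEATS2 (FST and ACVR1C), where 9.61% of all genes rose. SMAD7, an inhibitor of the pathway, fell (-0.78, edgeR adjusted p = 0.0459), where 11.1% of all genes fell. Nothing is read about the list from these counts. SMAD7 lost its call in 8 of 19 alternative settings and ACVR1C in 7. ACVR1C had 2 and 3 counts in YT shNT and 12 and 12 in YT shYEATS2, at least 3.38-fold higher against 3 counts per library. INHBA, at or under 2.12 CPM in the 12 libraries, did not pass in YT shNT against TC shNT or in YT shYEATS2 against YT shNT. It was higher in YT shYEATS2 than in TC shYEATS2 (1.70, edgeR adjusted p = 0.0151) and lower in YT shZZZ3 than in YT shYEATS2 (-1.88, edgeR adjusted p = 0.0142), and the first call was lost in 4 settings.

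The hepatokine gene FGF21, another ATF4 target, was seen almost only in YT shNT, with 25 and 30 counts there, none in TC shNT, 1 and 0 with shYEATS2 and 0 and 1 with shZZZ3. It was at least 11.8-fold higher in YT shNT than TC shNT and at least 10.9-fold lower in YT shYEATS2 than in YT shNT, against 3 counts per library. Targets of NRF2, the factor of oxidative stress, were mixed. Of 8 genes 1 rose in YT shNT, TXNRD1 (1.19), where 5.58% of all genes rose. In YT shYEATS2, where 11.1% of all genes fell, 2 fell, OSGIN1 (-1.48) and TXNRD1 (-1.06), each lost in 5 settings. Nothing is read about the list from these counts. NQO1 was at 1285 and 1228 CPM in YT shNT, 1778 and 1558 with shYEATS2 and 472 and 312 with shZZZ3, so the 2 hairpins left it at different levels (log2 fold change of YT shZZZ3 against YT shYEATS2 -2.09, SE 0.262, edgeR adjusted p = 0.00113).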
